A study of Homo sapiens with 6 samples.

Results

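Chromatin accessibility at 10 genes of the skeletal muscle lineage was examined in heart muscle cells with and without knockdown of ZNF436. The genes were MYOD1, MYF5, MYF6, MYOG, PAX7, PAX3, MYH1, MYH2, MYH3 and MYH8. They were followed through 6 windows on hg19, and a called peak belonged to a window when its midpoint lay inside it. The windows were chromosome 11:17710001-17770000 for MYOD1, chromosome 12:81080001-81140000 for MYF5 and MYF6, and chromosome 1:203030001-203080000 for MYOG. PAX7 was covered by chromosome 1:18930001-19090000, PAX3 by chromosome 2:223040001-223190000, and the 4 myosin genes by chromosome 17:10180001-10580000. The windows held 167 of the 478912 peaks in all lists, which merged into 67 of 157315 regions.

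The cells were ventricular-like cardiomyocytes at day 15 of differentiation from H9, a human embryonic stem cell line. One group was control and the other was a knockdown of ZNF436, which belongs to the KRAB zinc finger proteins, a family known for silencing transposon-derived sequence. Each group had 3 ATAC-seq libraries of 50000 cells, which per the labels' protocols came from independent differentiations. Neither the knockdown agent nor the treatment of the control is given in the sources used here, and the locus of ZNF436 itself was not analysed here. ATAC-seq uses the Tn5 transposase to cut and tag open DNA, and the deposited values are 1 list of called peaks per library. In such bulk libraries, more cells with an open site and more opening per cell cannot be told apart.

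Skeletal muscle arises from progenitors that carry the paired-box factors PAX3 and PAX7. The helix-loop-helix factors MYF5 and MYOD1 commit cells to the lineage, and MYOG and MYF6 act later, in differentiating fibres. All 4 bind the E-box, the motif CANNTG. The myosin heavy chains of fast fibres lie in 1 cluster, in which MYH3 is the embryonic form, MYH8 the perinatal form and MYH2 and MYH1 adult fast forms. Heart muscle uses the separate genes MYH6 and MYH7.

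The upstream sequences of 3 members are shown as examples. Their windows hold a region found only in knockdown (MYF6), a region found in 5 of 6 libraries (MYOG) and the most regular site inside a myosin gene window (MYH2). The PAX3 and myosin windows also hold a region found in 5 of 6 libraries, and the myosin window also holds regions found only in knockdown. Each line gives the 250 bases before the annotated start in RefSeq (GRCh38.p14), on the strand of the gene, with E-boxes in capitals.
MYF6: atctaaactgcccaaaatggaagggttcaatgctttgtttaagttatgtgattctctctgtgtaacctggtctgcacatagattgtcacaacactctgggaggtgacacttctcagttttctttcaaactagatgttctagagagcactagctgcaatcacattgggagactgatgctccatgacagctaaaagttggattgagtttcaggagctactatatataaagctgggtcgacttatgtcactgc
MYOG: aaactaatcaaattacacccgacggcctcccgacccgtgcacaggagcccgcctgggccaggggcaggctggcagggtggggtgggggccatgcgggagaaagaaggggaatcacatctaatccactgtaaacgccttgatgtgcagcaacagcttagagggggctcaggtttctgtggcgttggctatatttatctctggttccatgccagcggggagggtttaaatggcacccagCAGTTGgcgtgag
MYH2: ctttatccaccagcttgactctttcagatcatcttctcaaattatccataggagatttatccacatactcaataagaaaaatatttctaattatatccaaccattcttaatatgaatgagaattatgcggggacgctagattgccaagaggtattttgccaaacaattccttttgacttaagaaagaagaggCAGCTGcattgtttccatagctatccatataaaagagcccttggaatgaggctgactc
Of the 10 members, 8 had an entry in the set of RefSeq promoter sequences used, all but MYOD1 and MYH3. At least 1 CANNTG, which reads the same on both strands, was found in 4 of these 8. Of all 35116 promoters in the set, 61.8% had one. These 4 were MYF5, MYOG, MYH2 and MYH8, the last with 2 matches. These are matches of letters in windows of another build, and whether a peak covered them was not analysed here.

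The lists differed in length, which bears on every count below. They held 50719 to 68342 peaks in control and 87871 to 115864 in knockdown, and the sequencing depth is unknown. The cell label was checked in 5 windows placed by hand on hg19 around heart muscle genes, namely MYH6 with MYH7, TNNT2, NKX2-5, ACTC1 and MYL2. These held 14.1 to 30.0 peaks per 100 kb in control and 29.5 to 35.9 in knockdown, and none was without a peak in any library. The 6 skeletal muscle windows held 1.93 to 2.84 peaks per 100 kb in control and 2.95 to 5.34 in knockdown. A cluster of olfactory receptor genes, which are silent in heart, held 0 to 0.375 peaks per 100 kb across the libraries. Over bins of 1 Mb the median was 1.3 to 1.7 in control and 2.5 to 3.4 in knockdown. Windows differ in how much sequence around a gene they take in. Summed over each set, the skeletal muscle windows were below the heart windows in every library and above the silent cluster. Single windows crossed this order. In control replicate 2, MYOD1 had 8.33 peaks per 100 kb and the heart gene MYL2 6.67, and the MYF5 and MYF6 window had none in control replicate 3.

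Taken as 1 group, the 6 windows held more peaks in knockdown, but not a larger part of each list. The control libraries had 20, 17 and 25 peaks in them (replicates 1, 2 and 3) and the knockdown libraries 47, 26 and 32. Every knockdown library was above every control library, although knockdown replicate 2 exceeded control replicate 3 by a single peak. The means were 20.7 ± 4.04 and 35 ± 10.8 peaks (SD, n = 3 each, two-sided exact permutation p = 0.1). Their ratio was 1.69 ± 0.619, where the ± carries the SDs of both groups into the ratio and is not an SE. A test of 3 libraries against 3 cannot give a p below 0.1. Per 10000 peaks of a list the values were 3.94, 3.17 and 3.66 in control and 4.06, 2.54 and 3.64 in knockdown. These groups overlapped (3.59 ± 0.392 against 3.41 ± 0.785, SD, n = 3 each, two-sided exact permutation p = 0.8). The excess was absent when each list was reduced to its 50719 highest-scoring peaks, where control had a mean of 17 ± 2.65 and knockdown one of 14 ± 3 (SD, n = 3 each, two-sided exact permutation p = 0.4).

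**Figure D1:**
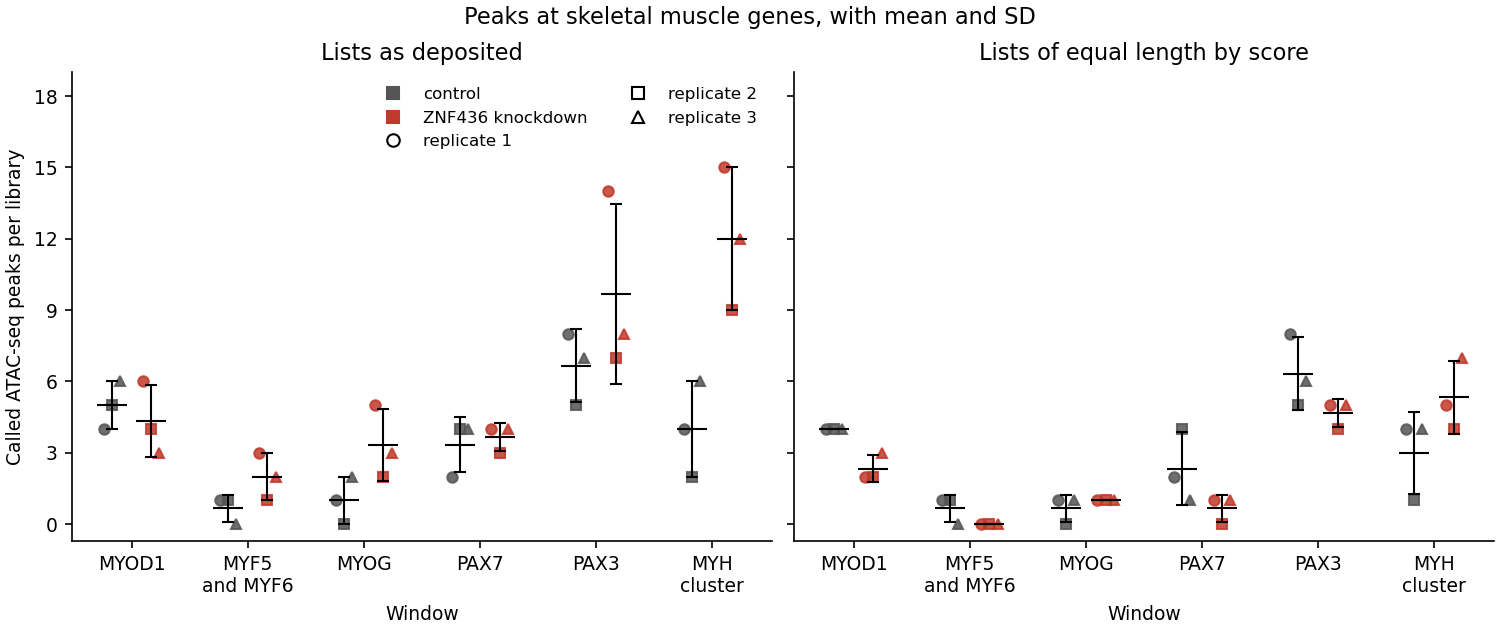
Called peaks per library in each of the 6 windows, for the lists as deposited (left) and for lists of equal length by score (right); points are libraries, bars the mean and SD of 3. In the lists as deposited the myosin cluster is the window where all 3 knockdown libraries (9 to 15 peaks) lie above all 3 control libraries (2 to 6), and in equal lists they overlap (4 to 7 against 1 to 4).

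Among the determination factors, MYOD1 held a smaller share of the peaks in knockdown. MYOD1 is a factor that can by itself turn other cells into muscle. Its window had 4, 5 and 6 peaks in control and 6, 4 and 3 in knockdown, so the numbers overlapped (5 ± 1 against 4.33 ± 1.53, SD, n = 3 each, two-sided exact permutation p = 0.8). While whole lists lengthened, this window did not follow. Per 10000 peaks of the list it had 0.789, 0.932 and 0.878 in control and 0.518, 0.390 and 0.341 in knockdown, and these groups did not overlap. The share of the list fell by 1.05 on the log2 scale (SE 0.286, limma adjusted p = 0.0150), where the median over all 2855 features tested was a change of 0.16. Of the 5 windows with enough peaks for this test, MYOD1 was the 1 called lower, against 10% of all features. No window was called higher, against 19.9% of all features, although the myosin cluster had an unadjusted p under 0.05 (0.0305). With 1 library left out the call held in 4 of 6 fits, with limma adjusted p between 0.0226 and 0.0426. It was lost without knockdown replicate 2 (change -1.01, limma adjusted p = 0.0549) and without knockdown replicate 3 (change -0.94, limma adjusted p = 0.0545). The adjusted p was 0.136 with lists of equal length, where the change was -0.69, and 0.612 without scaling to the list, where it was -0.22.

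The bases covered at MYOD1 differed less than the share of peaks. Peaks covered 1337, 1256 and 1803 bp in control and 2451, 1975 and 1272 bp in knockdown, and the groups overlapped (1465 ± 295 against 1899 ± 593 bp, SD, n = 3 each, two-sided exact permutation p = 0.3). As a share of all covered bases the change was -0.57 on the log2 scale (limma adjusted p = 0.0807). Of 9 regions, 2 were called in every library. By its mean percentile over the libraries, chromosome 11:17756073-17756953 was the stronger, although it ranked below the other in control replicates 1 and 2. Its score, ranked as a percentile of the scores in its own list, lay at 71.1, 61.9 and 84.7 in control and at 86.2, 91.5 and 84.6 in knockdown. It consisted of a pair of peaks in every library except knockdown replicate 2, whose list has 1 wider peak there, which lowers a count of peaks without lowering the bases covered. The other shared region, chromosome 11:17752127-17752971, ranked at 83.9, 72.0 and 66.2 in control and 80.4, 80.7 and 77.5 in knockdown. Ranks come from lists of different length, so they place a peak within its own list and show no change.

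Weaker regions at MYOD1 were called irregularly. Chromosome 11:17741590-17741944 was called in 2 control and 2 knockdown libraries, at percentiles of 19.8 to 37.0. Chromosome 11:17765346-17765601 was called in 2 knockdown libraries and no control library. Of the other 5 regions, each called in 1 library, 4 were from control, among them chromosome 11:17742551-17742878 at the 45.6 percentile. In RefSeq, the next gene beside MYOD1 is KCNC1, a neuronal potassium channel. The annotation at hand is of another build, so which of these regions belong to MYOD1 and which to KCNC1, or to an exon or intron, is not given here.

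MYF5 and MYF6, neighbours in 1 window, had few and weak peaks. The window held 1, 1 and 0 peaks in control and 3, 1 and 2 in knockdown, and the groups overlapped (0.667 ± 0.577 against 2 ± 1, SD, n = 3 each, two-sided exact permutation p = 0.3). Its mean over the libraries was too low for the fit across the genome. Chromosome 12:81096773-81097096 was absent from all 3 control lists and present in each knockdown list. It lay in the part of the window placed by hand around MYF6, and ranked at the 23.2, 31.9 and 17.8 percentile of the knockdown lists. None of these 3 peaks was kept in lists of equal length. Chromosome 12:81107758-81108275, in the part around MYF5, was called in control replicates 1 and 2 and in knockdown replicates 1 and 3. The last region, chromosome 12:81101780-81101983, was called in knockdown replicate 1 alone. No library ranked a peak of this window above the 31.9 percentile.

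MYOG, the factor of terminal muscle differentiation, had 1, 0 and 2 peaks in control and 5, 2 and 3 in knockdown. The groups touched at 2 peaks (1 ± 1 against 3.33 ± 1.53, SD, n = 3 each, two-sided exact permutation p = 0.2). The share of the list changed by 0.73 on the log2 scale (SE 0.578, limma adjusted p = 0.349), and by 0.12 without control replicate 2, which had no peak there. The bases covered did not overlap, with 180, 0 and 406 bp in control and 1307, 493 and 831 bp in knockdown (195 ± 203 against 877 ± 409 bp, SD, n = 3 each, two-sided exact permutation p = 0.1). Of the 6 windows, 3 had separate groups in covered bases with knockdown higher, against 96.1% of all features tested, most of which are bins larger than the windows.

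One strong region and several marginal ones made up the MYOG window. Chromosome 1:203038412-203038838 was called in 5 libraries, all but control replicate 2. It ranked at the 51.9 and 83.6 percentile in control and at 80.4, 83.0 and 86.7 in knockdown, and in the lists of equal length it was the only region of the window that was left. Chromosome 1:203060140-203060429 was called in knockdown replicates 1 and 2, at the 52.0 and 8.49 percentile. Chromosome 1:203056111-203056348 was called in knockdown replicates 1 and 3, at 4.24 and 10.7. The other 4 regions were each called in 1 library, 3 of them in knockdown. RefSeq places PPFIA4 and the RNA gene MYOPARR next to MYOG, with ADORA1 beyond, so the window may hold sites of these genes.

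In the windows of the upstream factors PAX7 and PAX3 the groups overlapped in peak number. PAX7 marks the stem cells of adult muscle. Its window had 2, 4 and 4 peaks in control and 4, 3 and 4 in knockdown (3.33 ± 1.15 against 3.67 ± 0.577, SD, n = 3 each, two-sided exact permutation p = 1). Its share of the list changed by -0.67 on the log2 scale (SE 0.351, limma adjusted p = 0.160), and its peak number by 0.16 without scaling. Of its 11 regions 1 was called in all 6 libraries, chromosome 1:18982045-18982505. This region ranked at the 60.1, 65.8 and 55.7 percentile in control and at 75.0, 14.5 and 74.8 in knockdown, so that knockdown replicate 2 stood apart. The other PAX7 regions were called in at most 3 libraries, with 4 of the 11 in more knockdown than control libraries and 3 in fewer.

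PAX3 acts in muscle progenitors and also in the neural tube and neural crest. Its window had 8, 5 and 7 peaks in control and 14, 7 and 8 in knockdown, where knockdown replicate 1 alone was above the range of control (6.67 ± 1.53 against 9.67 ± 3.79, SD, n = 3 each, two-sided exact permutation p = 0.5). The share of the list changed by -0.36 on the log2 scale (SE 0.264, limma adjusted p = 0.306). This value moved with single libraries, to -0.14 without control replicate 1, -0.17 without knockdown replicate 2 and -0.55 without knockdown replicate 1, and it was -0.07 with windows widened by 50 kb. On the scale of covered bases the change was 0.26, and in peak number without scaling 0.47, so the sign depended on the measure. The bases themselves were 2139, 1385 and 2458 bp in control and 5937, 3990 and 3696 bp in knockdown, which did not overlap (1994 ± 551 against 4541 ± 1218 bp, SD, n = 3 each, two-sided exact permutation p = 0.1).

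Of the 17 regions of PAX3, 3 were called in every library. By mean percentile chromosome 2:223182796-223184172 was the strongest, at the 73.2, 61.9 and 77.0 percentile in control and 90.4, 91.2 and 84.6 in knockdown. Next to it, chromosome 2:223184314-223185881 was called in all libraries but control replicate 2, at 27.7 and 45.6 in control and 60.7 to 65.8 in knockdown. Both lie at the upper edge of the window, within 10 kb of its end, and the next region beyond that edge is 43.1 kb away. The remaining shared regions were chromosome 2:223104711-223105052, at 51.0 to 63.4 over the 6 libraries, and chromosome 2:223073102-223073560, at 27.7 to 67.3. Opposite to most, chromosome 2:223148431-223148656 was called in 2 control libraries and 1 knockdown library. Chromosome 2:223155705-223156435 was called in 2 libraries of each group. Of the other 11 regions, 10 were called in 1 knockdown library each and in no control library. RefSeq places CCDC140, RNF228 and CT75 beyond PAX3, so that the sites at the upper edge are not assigned to PAX3 here.

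The myosin heavy chain cluster was the window with the clearest difference in peak number. It held 4, 2 and 6 peaks in control and 15, 9 and 12 in knockdown, and the groups did not overlap. The means were 4 ± 2 and 12 ± 3 peaks (SD, n = 3 each, two-sided exact permutation p = 0.1). It was the 1 window of the 6 with all knockdown libraries above all control libraries, against 87.1% of all features tested, so this separation is common in these lists. Most of those features are bins larger than the windows and with more peaks, so the 87.1% is not a share over windows of like size. No window had all knockdown libraries below, against 0.385% of features. Per 10000 peaks of the list the myosin window had 0.789, 0.373 and 0.878 in control and 1.29, 0.878 and 1.37 in knockdown, where control replicate 3 and knockdown replicate 2 were nearly equal. By this share, 1 of the 6 windows lay wholly higher in knockdown, against 34.7% of features, and 1, MYOD1, wholly lower, against 13.2%. The bases covered were 705, 508 and 1314 bp in control and 3910, 2316 and 3505 bp in knockdown (842 ± 420 against 3244 ± 829 bp, SD, n = 3 each, two-sided exact permutation p = 0.1). As a share of the list the change was 0.72 on the log2 scale (SE 0.301, limma adjusted p = 0.0821), which did not pass the threshold of 0.05. It passed without control replicate 3 (change 0.91, limma adjusted p = 0.0378) and as a share of covered bases (change 1.00, limma adjusted p = 0.0231). It did not with lists of equal length (change 0.87, limma adjusted p = 0.128), where 4, 1 and 4 peaks in control stood against 5, 4 and 7 in knockdown. Without control replicate 2, which had 2 peaks, the change was 0.40 (limma adjusted p = 0.273).

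**Figure D2:**
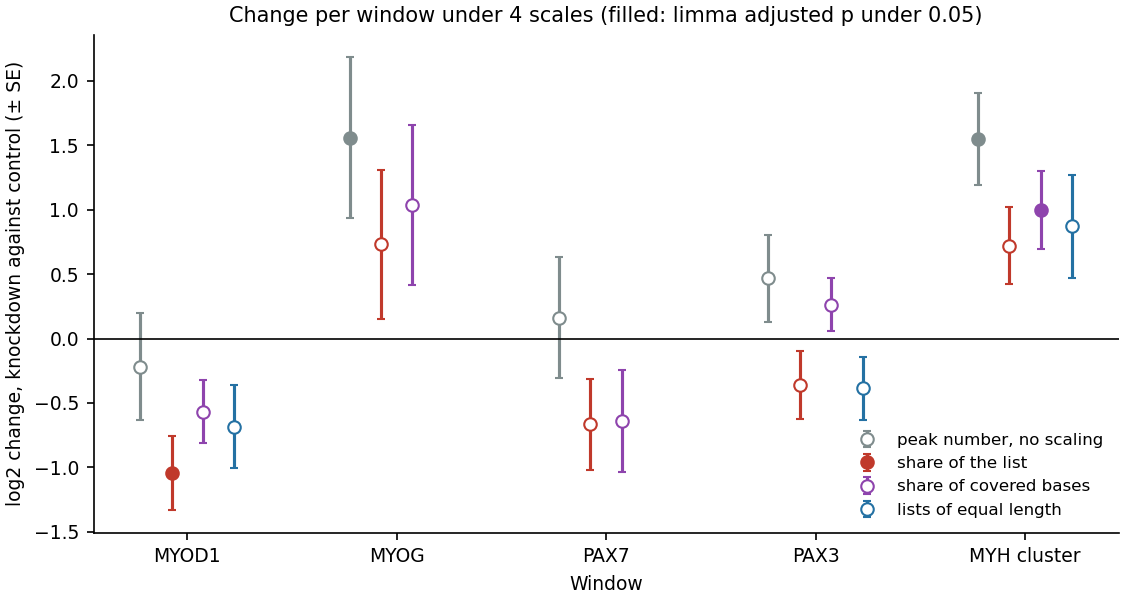
Change of knockdown against control in the 5 windows with enough peaks for the fit, as log2 change ± SE, on 4 scales; filled points have a limma adjusted p under 0.05. The myosin cluster is above 0 and MYOD1 below 0 on all the scales shown, while PAX3 and PAX7 change sign with the scale; MYOG and PAX7 have no value with lists of equal length because too few peaks remained.

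The peaks of the myosin window lay mostly outside the gene windows placed by hand. Windows placed by hand around MYH13, MYH8, MYH4, MYH1, MYH2 and MYH3 make up 270.0 of its 400 kb, and 6 of its 20 regions lay in them. They held 0, 0 and 2 peaks in control and 3, 1 and 4 in knockdown, while the stretches between them, 130.0 kb in all, held 4, 2 and 4 against 12, 8 and 8. The RefSeq span of MYH3, 49886 bp, exceeds its window of 40000 bp, so these stretches take in part of that gene. Which of their regions lie in it is not given here. The MYH1 window had no peak in any library. The MYH8 window had 1 peak, in knockdown replicate 3, and the MYH3 window had 1, in knockdown replicate 1. MYH2, the fast oxidative form, had the most regular site of a gene window, chromosome 17:10448562-10449035. It was called in control replicate 3 and in all 3 knockdown libraries, at the 77.0 percentile in control and 70.8, 41.6 and 60.8 in knockdown.

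By mean percentile the strongest site of the cluster was chromosome 17:10287356-10287851, between the windows of MYH13 and MYH8, and it was called in all 6 libraries. Its score lay at the 68.8, 28.4 and 75.3 percentile of the control lists and at 95.9, 87.6 and 87.9 of the knockdown lists. In control replicate 3 the MYH2 site ranked above it. Between the windows of MYH2 and MYH3 lay 6 regions, with 3, 0 and 2 peaks in control and 5, 3 and 6 in knockdown. The strongest of them by mean percentile, chromosome 17:10521476-10521902, was called in 2 control libraries (66.2 and 68.9) and in all knockdown libraries (77.4, 74.6 and 73.2). Chromosome 17:10503726-10504395 was called in control replicate 1 at the 4.71 percentile and in knockdown at 48.4, 58.3 and 37.1.

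Regions present in each knockdown list and absent from each control list numbered 3 of 67 (4.48%), against 7.73% of all regions. The MYF6 site above was one, and the other 2 lay in the myosin window. Chromosome 17:10519938-10520251, between the windows of MYH2 and MYH3, ranked at the 48.4, 41.6 and 31.2 percentile of the knockdown lists. Chromosome 17:10576694-10576973 lay between the MYH3 window and the end of the cluster window, where RefSeq has SCO1 as the next gene after MYH3, and ranked at 60.7, 52.6 and 37.1. With lists of equal length the number was 0, against 3.08% of all regions, since at least 1 of the 3 peaks of each region dropped out. No region was called in all 3 control libraries and no knockdown library, against 0.129% of all regions.

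**Figure D3:**
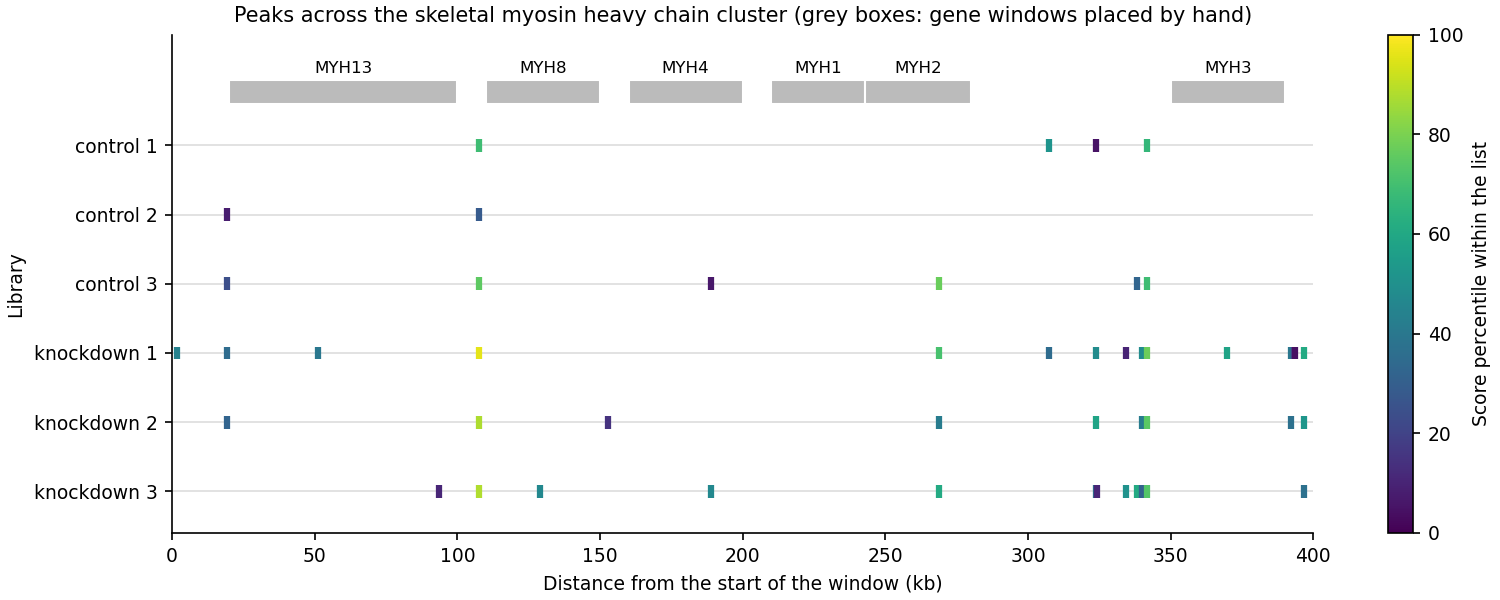
Positions of called peaks across the window of the skeletal myosin heavy chain cluster, 1 row per library, as distance in kb from the start of the window; colour is the percentile of the score within the library's own list, and grey boxes are gene windows placed by hand. The 3 knockdown rows hold 9 to 15 peaks and the control rows 2 to 6. A site between the MYH13 and MYH8 boxes is present in all rows, and a group of sites lies between the MYH2 and MYH3 boxes.

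Over all 6 windows, the regions went to more or fewer knockdown libraries in shares near those of the genome. Of the 67 regions, 41 (61.2%) were called in more knockdown than control libraries, against 65.4% of all regions, and 9 (13.4%) in fewer, against 12.1%. The myosin window had 15 of its 20 regions in more knockdown than control libraries and none in fewer. MYOD1 had 2 of 9 in more and 4 in fewer. Regions called in 1 library only made up 50.7% (34 of 67), against 38.3% of all regions, and those called in all 6 made up 10.4% (7 of 67), against 18.2%. With lists of equal length, 9 of 31 regions (29.0%) were called in more knockdown libraries, against 33.4%, and 14 (45.2%) in fewer, against 30.8%. In those lists MYOD1 was the 1 window of the 6 with separate groups, against 9.31% of features that lay lower in this way. Control had 4 peaks per library there and knockdown 2, 2 and 3. The heart window of MYH6 with MYH7 also lay lower, with 14, 14 and 19 peaks in control and 9, 9 and 12 in knockdown.

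**Figure D4:**
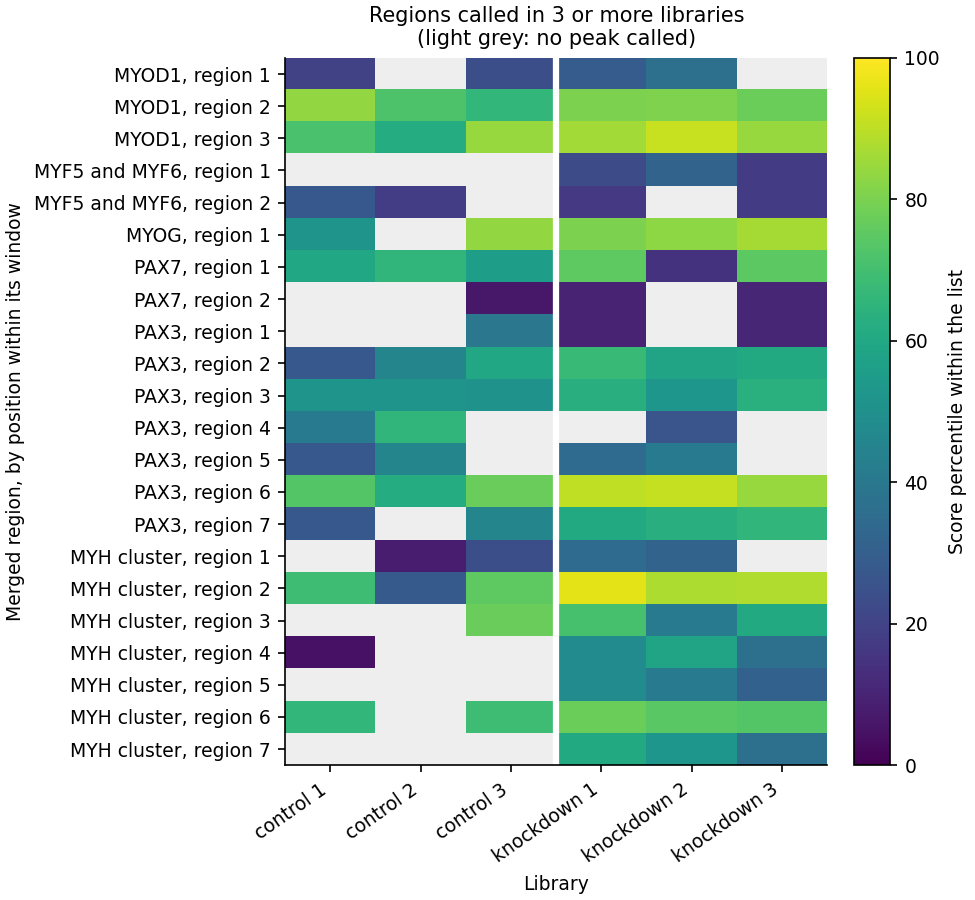
The 22 merged regions of the 6 windows that were called in 3 or more libraries (rows, in order of position within each window) in the 6 libraries (columns); colour is the percentile of the highest score within the library's own list, and light grey means no peak. The 7 rows without grey are the regions called in all 6 libraries, and the 3 rows with grey in all control columns and colour in all knockdown columns are those called only in knockdown.

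Other genes of the skeletal muscle programme were covered by 10 windows placed by hand. They comprise ACTA1, CKM, TNNI2 with TNNT3, TNNC2, CHRNA1, CHRND with CHRNG, RYR1, CACNA1S, MYMK and MEOX1. They held 4.29 to 6.51 peaks per 100 kb in control and 8.1 to 10.0 in knockdown. In a second fit with these windows added, 0 of the 9 that could be tested were called in either direction (limma, adjusted p), against 19.7% higher and 9.93% lower over all features, and 0 had an unadjusted p under 0.05. In 5 of the 10 windows every knockdown library had more peaks than every control library. They were TNNI2 with TNNT3, CHRND with CHRNG, CACNA1S, MYMK and MEOX1. This separation was shown by 87.1% of all features, most of them bins larger than these windows. MYMK, whose product fuses myoblasts, had 2.33 ± 0.577 against 6 ± 1 peaks (SD, n = 3 each). CACNA1S, the calcium channel of skeletal muscle, had 2.67 ± 0.577 against 7 ± 2.65. With lists of equal length 0 of the 10 windows lay wholly higher in knockdown, against 21.7% of features, and MYMK had 2 peaks in each of the 6 libraries. CACNA1S then had 2, 3 and 2 peaks in control and 2, 3 and 1 in knockdown. The median log2 change in share was 0.02 over these windows and -0.36 over the 5 tested windows of the members, beside 0.16 over all features. Over the 5 heart windows it was -0.24. The member windows ran from -1.05 at MYOD1 to 0.73 at MYOG.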

How the data were processed

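The deposited files are 6 lists of ATAC-seq peaks, 3 from control and 3 from ZNF436 knockdown, each with position and an integer score. The score is the authors' deposited value for each peak, read here only as a rank inside its own list, in percentiles. Each peak's name begins with MACS and the name of 1 library, which fits calling in each library by itself. The build hg19 and the tools bedtools 2.30.0 and Bowtie2 2.4.5 are named per the submitters' processing notes, without their role. For caller version, threshold, Tn5 shift and duplicate removal, a statement is not given in the sources used here.

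Peaks were counted by midpoint in the 6 windows and in bins of 1 Mb from which window peaks had been removed (chromosomes 1 to 22 and X). Features with a mean of at least 2 peaks entered limma 3.58.1 (R 4.3.3, trended and robust) on log2((peaks + 0.5) / list length × median length), with Benjamini-Hochberg adjustment over all features and a threshold of 0.05. Most bins are larger than the windows and hold more peaks. Regions were made by merging peaks that share 1 bp or more. The fit and the merging were tested on simulated data. Python 3.11.15, pandas 2.3.3 and numpy 2.4.6 were used.

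The members and lists were chosen with earlier results of these data known. Named regions are those of a single group in all its libraries, those found in all 6 libraries and up to 3 more per window by number of libraries and score, and a few others chosen after their values were seen. Comparison windows and gene windows were placed by hand from general knowledge of hg19, since no annotation of hg19 was used here. All 23 of the gene-based windows checked lay on the chromosome RefSeq gives, and 22 were at least as long as the RefSeq span of their genes. The exception was MYH3, whose span of 49886 bp exceeds its window. The RefSeq set used is of another build, so the positions of these windows on hg19 were not checked. One further planned comparison window is not reported here. Alternatives are in the closing section.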

Additional observations from a re-analysis of the deposited data

How the results depend on the processing

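The ratio of peaks in the 6 windows, 1.69, became 0.824 with lists of equal length and ran from 1.40 to 1.91 with 1 library left out. The ratio of shares, 0.950, became 1.03 with windows widened by 50 kb, and ran from 0.861 to 1.07 with 1 library left out, above 1 only without knockdown replicate 2. Regions called only in knockdown, 3 in number, became 0 with lists of equal length, 1 with the stronger 50% of each list and 8 when 2 of 3 libraries sufficed, and ran from 3 to 6 with 1 library left out. Those called only in control were 0 under every alternative run. The number of windows called was 1 in the main fit and 2 without scaling (MYOG and the myosin cluster). It was 0 with lists of equal length, 0 with the stronger 50% and 0 to 2 with 1 library left out. Covered bases also gave 1, which was then the myosin cluster and not MYOD1. At PAX3 the log2 change of -0.36 became 0.26 with covered bases and 0.47 without scaling, and at PAX7 that of -0.67 became 0.16 without scaling; none of these passed the test. MYOG moved from 0.73 to 0.28 with widened windows and 0.37 with a pseudocount of 1, PAX7 moved to -0.34 with widened windows, and PAX3 to -0.11 with the stronger 50%. Over all features, 568 higher and 286 lower became 2565 and 20 without scaling, 302 and 442 with scaling to the median ratio, 338 and 173 with lists of equal length, and 330 higher with the stronger 50%. Covered bases gave 896 higher, and leave-one-out fits gave between 136 and 706 higher and between 156 and 310 lower. The cause of these shifts was not tested.

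With the replicate number as a block, 2 windows were called (the myosin cluster then had a limma adjusted p of 0.0375), with 658 features higher and 305 lower, and the ratios were 1.72 and 0.942. Deviations from the group means correlated between same-numbered libraries by 0.0347, 0.1128 and 0.0928. Between differently numbered libraries the correlations ran from -0.1445 to 0.0436. Control replicate 1 correlated about equally with knockdown replicate 2 (0.0354). With 3 libraries per group these values do not decide whether same-numbered libraries were paired. MYOG and PAX7 could not be fitted with lists of equal length or the stronger 50%, and MYOG not without knockdown replicate 1, because their means were under 2 peaks. Membership by overlap instead of midpoint changed no count. Depth is unknown, and several windows hold fewer than 5 peaks per library, so that 1 peak moves their values.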
